A study of Mus musculus with 7 samples.

Results

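Prolactin, growth hormone and leptin act on beta cells through receptors of the class I cytokine family, and 8 genes of this pathway were examined. They are the receptor genes Prlr, Ghr and Lepr, the receptor-associated kinase gene Jak2, and the inhibitor genes Cish, Socs1, Socs2 and Socs3. Members were the probe sets of the array whose platform annotation names one of these genes, alone or among several. This gave 9 probe sets for 7 of the 8 genes, out of 35556 probe sets on the array and 19939 genes with a probe set of their own. Socs2 and Socs3 had 2 probe sets each, and Prlr was not analysed here.

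RNA came from pancreatic beta cells of mice aged 25 days, all of them insulin-Cre; Rosa26-LSL-YFP on an ICR strain background. In such mice the insulin promoter drives Cre, which switches on the YFP reporter, and 2000 to 6000 YFP+ cells were sorted from the dissociated islets of each mouse and measured on 1 Affymetrix array. The weaned group had 3 mice, prematurely weaned at day 18, and the suckling group had 4 mice that were still suckling at day 25. Both groups carry the same transgenes, and there was no group without Cre. Some insulin-promoter Cre transgenes carry a human growth hormone gene segment whose product can act on the mouse prolactin receptor, and the labels do not say whether this one does.

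When such a hormone binds, its receptor chains bring their JAK2 kinases together, and these phosphorylate the receptor and the transcription factor STAT5. STAT5 enters the nucleus and binds palindromes of the form TTCNNNGAA. Among its known target genes are CISH and SOCS proteins, which bind the receptor or the kinase and shut the signal down, so that their transcripts are commonly read as a gauge of recent signalling. In beta cells the prolactin receptor is known for its part in the growth of beta-cell mass in pregnancy, when placental lactogens also induce the serotonin-synthesis gene Tph1. Rodent milk contains prolactin, which makes the pathway one of interest at weaning.

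To show the STAT palindrome where it stood nearest to these genes, windows of 300 bases from RefSeq (GRCm38.p6), which hold 250 bases before each annotated start and 50 from it, were searched for TTCNNNGAA. The palindrome reads alike on both strands. Windows were at hand for 7 of the 8 genes, 11 windows in all, and 3 of these held the motif, 1 each of Cish, Socs3 and Prlr. Of all 32851 windows, 8.3% held it. Cish had 2 copies separated by 2 bases, the first of which began on the annotated start base itself, and 0.457% of all windows held 2 or more. The Socs3 copy began 154 bases before its start and the Prlr copy 110 bases before the start of the second of 3 Prlr windows. The runs below are 30 bases each, 5′ to 3′ on the gene's strand, with the palindromes in capitals.
Cish (chr9:107296654-107296683, plus strand): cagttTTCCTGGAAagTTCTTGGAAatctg
Socs3 (chr11:117969502-117969531, minus strand): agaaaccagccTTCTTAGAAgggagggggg
Prlr (chr15:10223785-10223814, plus strand): ggcaaaatgagTTCTAGGAAtaagggatat
These matches are descriptions of sequence, and STAT binding was not measured in these samples.

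No difference between weaned and suckling mice was detected in the receptor, kinase and inhibitor transcripts. In the limma fit 0 of the 9 member probe sets passed an adjusted p of 0.05, a threshold that 0.00844% of all probe sets passed. At an unadjusted p under 0.05 the count was again 0 of 9, where 3.5% of all probe sets were higher and 3.06% lower in weaned mice, 6.56% together. The groups of arrays overlapped in all 9 member probe sets, while 6.49% of all probe sets had groups that did not. Adjusted p ran from 0.771 to 0.991 over the member probe sets. With 1 probe set per gene, 6 of 7 genes were higher on average in weaned mice and 1 lower, and the median log2 difference, weaned minus suckling, was 0.12, against -0.0023 over all probe sets, of which 49.3% had a higher weaned mean. Leaving out Lepr, which lay at background, the median was 0.096. The standard errors of the 9 differences were 0.10 to 0.21 log2 units. The 95% intervals of the 8 probe sets above background reach no further than a ratio of 0.79 on the lower side and 1.68 on the upper.

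**Figure D1:**
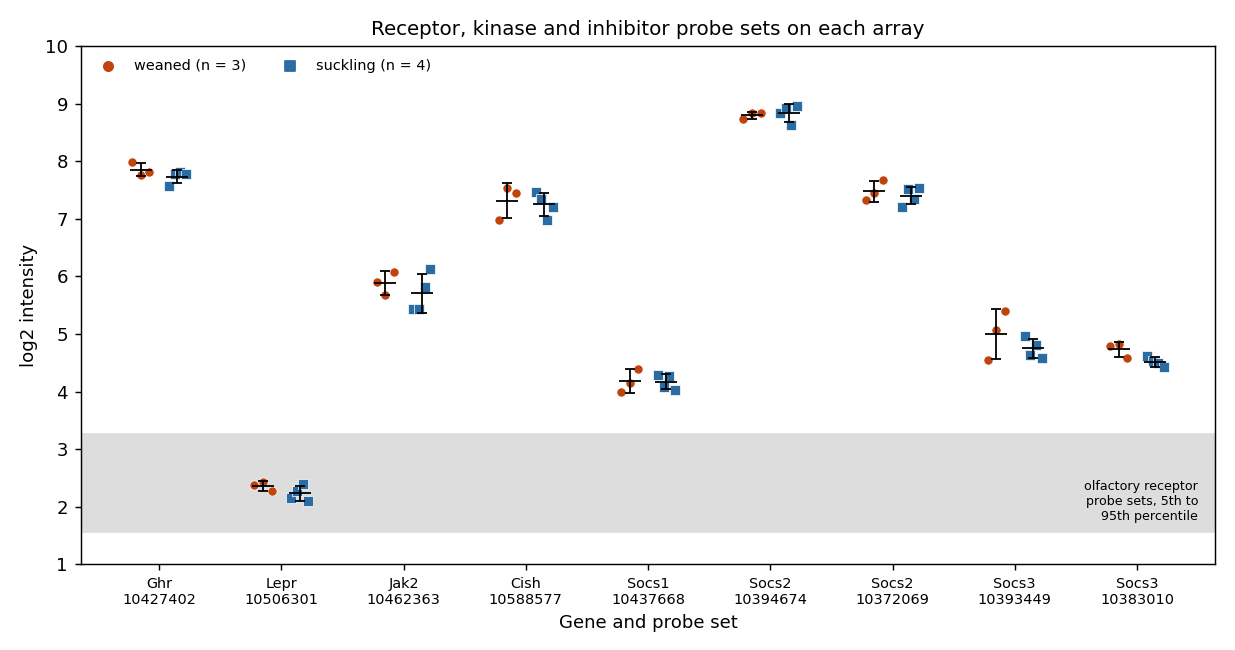
Log2 intensity of the 9 probe sets of the 7 measured genes on each array, circles for 3 weaned and squares for 4 suckling mice, with the group mean and SD as bars; the grey band spans the 5th to 95th percentile of olfactory receptor probe sets, 1.57 to 3.27. Circles and squares overlap for every probe set, and only Lepr lies inside the band.

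The growth hormone receptor gene Ghr, whose product drives IGF1 output in the liver, was measured at 7.98, 7.76 and 7.81 log2 units in weaned replicates 4, 5 and 12. In suckling replicates 2, 9, 11 and 12 it was 7.56, 7.77, 7.82 and 7.78. The highest array was weaned and the lowest was suckling, and the remaining 5 lay between 7.76 and 7.82. The means were 7.85 ± 0.12 (SD, n = 3) and 7.73 ± 0.12 (n = 4), a difference of 0.12 (SE 0.11, 95% interval -0.13 to 0.37, limma adjusted p = 0.86). On the ratio scale this is 1.09, with an interval of 0.91 to 1.29. The log2 difference was 0.053 without weaned replicate 4, 0.061 without suckling replicate 2 and 0.058 with a covariate for acinar (mostly digestive enzyme) genes. Leaving out the highest weaned or the lowest suckling array lowers the difference by construction. The part of acinar RNA in the Ghr difference was not tested. In sorted cells measured as a bulk, fewer cells of a type and less RNA per cell cannot be told apart.

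Lepr, the gene of the leptin receptor, through which the adipose hormone leptin reports fat stores, gave no signal that could be told from background. Its values ran from 2.27 to 2.43 in weaned mice and from 2.10 to 2.39 in suckling mice. Olfactory receptor probe sets, taken as transcripts not made in islets, had a median of 2.09 and a 95th percentile of 3.27 over 1035 probe sets, and Lepr was below that percentile on all 7 arrays. No difference is therefore read from it.

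Jak2, the kinase that the prolactin, growth hormone and leptin receptors share, was the member with the widest spread among suckling mice. Its values were 5.91, 5.67 and 6.07 log2 units in weaned replicates 4, 5 and 12, and 5.43, 5.44, 5.82 and 6.13 in suckling replicates 2, 9, 11 and 12. The 2 lowest arrays were suckling replicates 2 and 9, and the highest array was also suckling. The difference was 0.18 (SE 0.20, adjusted p = 0.88, limma). Leaving out the 2 lowest arrays lowers the difference by construction, and it was then -0.09 (SE 0.18). Without suckling replicate 12, the highest array, it was 0.33 (SE 0.16). Suckling replicates 2 and 9 also had the highest mean signal of 25 measured acinar (mostly digestive enzyme) genes, at 7.27 and 7.15 log2 units. The other suckling arrays had list means of 4.07 and 4.77 and the weaned arrays 3.76 to 5.69. All 25 acinar genes had a lower mean in weaned mice, and 2 of the 25 lay at the olfactory receptor level. The genes share the same arrays, on which the list means of the groups overlapped (exact two-sided permutation p = 0.286). Only 1 gene had an unadjusted p under 0.05, the transcription factor gene Bhlha15, whose highest value of 8.71 was in suckling replicate 11. With the acinar list mean as a covariate the Jak2 difference was 0.044. The part of acinar RNA in the Jak2 difference was not tested beyond these values.

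Cish, the STAT5 target whose start carries the palindrome pair shown above, differed more among mice of a group than between groups. It was measured at 6.97, 7.53 and 7.45 log2 units in weaned replicates 4, 5 and 12 and at 7.46, 7.35, 6.98 and 7.20 in suckling replicates 2, 9, 11 and 12. The lowest array of each group, weaned replicate 4 and suckling replicate 11, lay almost at the same value. The means were 7.32 ± 0.30 (SD, n = 3) and 7.25 ± 0.21 (n = 4), a difference of 0.073 (SE 0.18, 95% interval -0.34 to 0.49, adjusted p = 0.951, limma). An increase of Cish beyond 1.40-fold or a decrease below a ratio of 0.79 thus lies outside the interval. Leaving out 1 array moved the difference between -0.034 without weaned replicate 5 and 0.25 without weaned replicate 4, and it was 0.23 without suckling replicates 2 and 9.

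Socs2, which restrains growth hormone signalling and is itself induced by it, had the brighter of its probe sets, 10394674, at 8.73, 8.83 and 8.83 log2 units in weaned replicates 4, 5 and 12. In suckling replicates 2, 9, 11 and 12 the values were 8.84, 8.93, 8.62 and 8.96. Suckling replicate 11 and weaned replicate 4 were again the 2 lowest arrays, as for Cish, over a range of 0.34 log2 units. The difference was -0.038 (SE 0.11, 95% interval -0.30 to 0.22). The other Socs2 probe set, 10372069, ran from 7.32 to 7.68 in weaned and from 7.21 to 7.53 in suckling mice, with a difference of 0.078 (SE 0.13), of opposite sign. Its lowest array was suckling replicate 2, not suckling replicate 11.

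Socs3, the inhibitor induced by leptin and by cytokines of the interleukin 6 family, had the largest differences of the members, and these missed the threshold. Probe set 10393449 was at 4.54, 5.06 and 5.40 log2 units in weaned replicates 4, 5 and 12, and at 4.96, 4.63, 4.81 and 4.59 in suckling replicates 2, 9, 11 and 12. The weaned arrays spread over the whole range, with both the lowest and the highest value of all 7. The difference was 0.25 (SE 0.21, 95% interval -0.24 to 0.75, adjusted p = 0.85, limma), and it ran from 0.053 without weaned replicate 12 to 0.48 without weaned replicate 4. Probe set 10383010, annotated from a single mRNA record, was tighter, at 4.79, 4.82 and 4.59 in weaned and 4.62, 4.53, 4.49 and 4.42 in suckling mice. There the lowest weaned array lay below suckling replicate 2 and above the other suckling arrays. The difference was 0.22 (SE 0.10, unadjusted p = 0.0598, adjusted p = 0.771, limma), and an exact two-sided permutation over the 35 splits gave p = 0.0857, where 0.0286 is the smallest this design allows. The weaned array with the lowest value differed between the probe sets, weaned replicate 4 in the first and weaned replicate 12 in the second.

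Socs1, a direct inhibitor of JAK kinase activity best known from interferon signalling, was dim but above the olfactory receptor 95th percentile on all 7 arrays. It was measured at 3.99, 4.15 and 4.40 log2 units in weaned replicates 4, 5 and 12 and at 4.29, 4.08, 4.27 and 4.03 in suckling replicates 2, 9, 11 and 12. The weaned values enclosed the suckling ones, and the difference was 0.012 (SE 0.13, 95% interval -0.30 to 0.32, adjusted p = 0.991, limma).

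**Figure D2:**
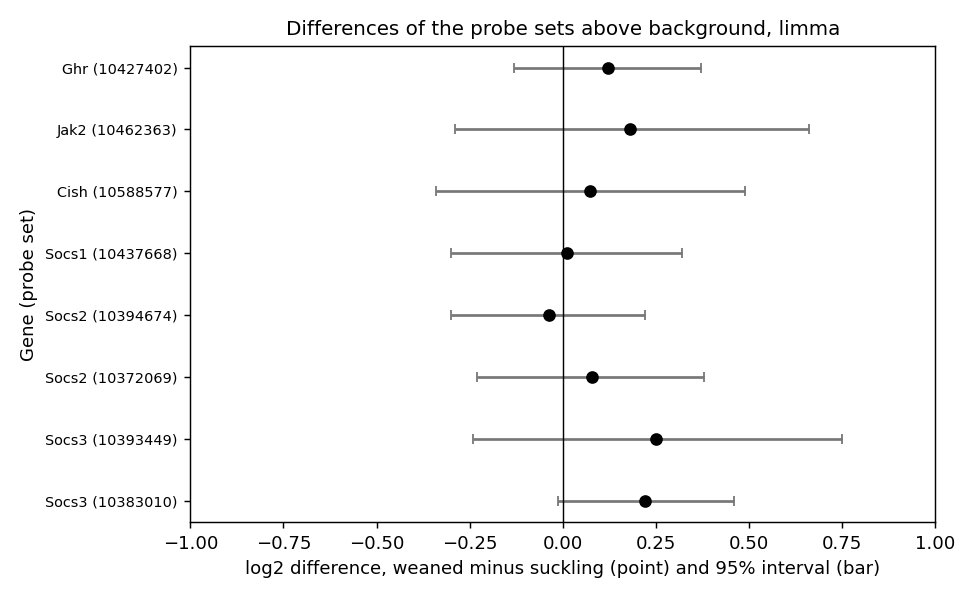
Log2 difference, weaned minus suckling, of the 8 member probe sets above background (points) with limma's 95% intervals (bars). Every interval includes 0, and the interval of the Socs3 probe set 10383010, from -0.012 to 0.46, only just does.

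The members' spread within groups, pooled over both, placed Ghr and the brighter Socs2 probe set among the steadier probe sets of the array, at the 14.7th and 17.9th percentile of within-group SD. Jak2 and the Socs3 probe set 10393449 were among the more variable, at the 71.5th and 73.7th, and Cish was at the 62.1st. Dim probe sets also vary less under RMA, so these ranks describe the values as deposited. The genes whose centred values over the 7 arrays lay nearest to those of Cish were Dcdc5, 4932438A13Rik and Garre1, with root mean square differences of 0.068, 0.081 and 0.088 log2 units among 12377 probe sets considered. Dcdc5 was dim, with means of 3.94 in weaned and 3.81 in suckling mice. None of the 3 is a gene of this pathway in the lists used. Among so many probe sets some lie this near by chance, so nothing about Cish is read from them.

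The rest of the pathway was described with 6 lists of 101 genes, of which 90 were measured. Of these, 48 were higher and 42 lower on average in weaned mice, the median difference was 0.0056, and 0 passed an adjusted p of 0.05 by limma. An unadjusted p under 0.05 was found for 8 of 90, or 8.89%, where all probe sets gave 6.56%, 6 of them higher and 2 lower in weaned mice. Groups did not overlap in 8 genes, again 8.89% against 6.49%. The count at an unadjusted p under 0.05 was 4 without suckling replicate 9, 4 without suckling replicates 2 and 9, and 5 with the immediate early gene level as a covariate.

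**Figure D3:**
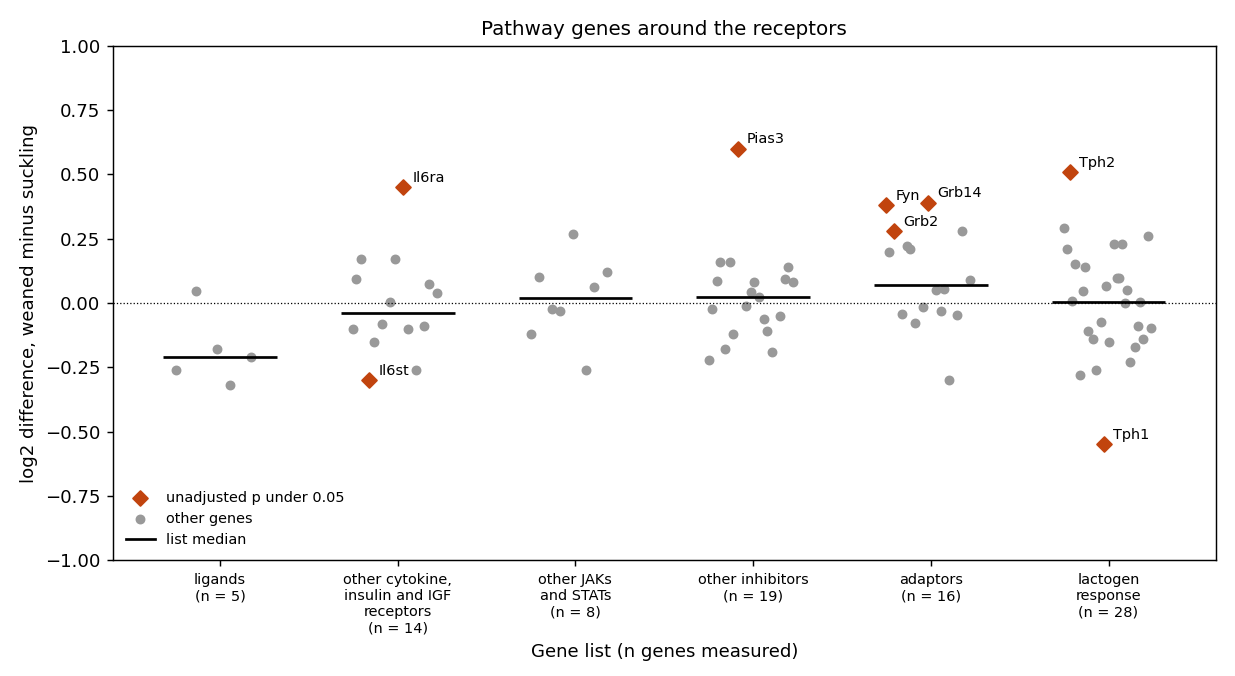
Log2 difference, weaned minus suckling, of each of the 90 measured pathway genes by list, diamonds for genes at an unadjusted p under 0.05 and horizontal bars for list medians. The list medians lie between -0.21 for the ligands, the value of a probe set at background, and 0.072 for the adaptors, and the 8 diamonds lie on both sides of 0.

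Of 8 ligand genes 5 were measured, and 4 had a lower mean in weaned mice, none at an unadjusted p under 0.05. Only 2 of the 5 lay above background in their mean, and the list median of -0.21 is the value of Lep, which was at background on all 7 arrays. The pituitary hormone genes Prl and Gh were close to background. Prl ran from 3.17 to 3.63 log2 units in weaned and from 3.48 to 3.90 in suckling mice, above the olfactory receptor 95th percentile on 6 of 7 arrays, with a difference of -0.18 (SE 0.16). Gh exceeded that level on 2 of 7 arrays and Igf1, the growth factor induced by growth hormone, on 1 of 7, so that no difference is read from them.

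Other cytokine, insulin and IGF receptors were split evenly, 7 of 14 measured genes higher and 7 lower, with a median of -0.04. Il6ra and Il6st, which encode the ligand-binding and the signalling subunit of the interleukin 6 receptor, stood on opposite sides. Il6ra was at 7.19, 7.42 and 7.19 log2 units in weaned replicates 4, 5 and 12 and at 6.93, 6.69, 6.62 and 7.03 in suckling replicates 2, 9, 11 and 12, so that the groups did not overlap. Its difference was 0.45 (SE 0.13, unadjusted p = 0.0121, adjusted p = 0.715, limma). Il6st was at 7.98, 8.01 and 7.75 in weaned and 8.12, 8.13, 8.16 and 8.43 in suckling mice, again without overlap, with a difference of -0.30 (SE 0.12, unadjusted p = 0.0417).

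The transcription factors and kinases beside Jak2 gave 4 of 8 measured genes higher and 4 lower, with a median of 0.02 and none at an unadjusted p under 0.05. Stat5a and Stat5b encode the STAT5 proteins that carry the prolactin and growth hormone signal. Stat5a was at 4.94, 5.10 and 5.21 log2 units in weaned and 4.64, 4.78, 5.06 and 4.77 in suckling mice, where only suckling replicate 11 reached the weaned range (difference 0.27, SE 0.13, unadjusted p = 0.0723, adjusted p = 0.778, limma). Stat5b differed by 0.10 (SE 0.11) and Stat3, which carries the leptin and interleukin 6 signals, by -0.022 (SE 0.12). Jak1 and Tyk2, kinases of the same family, differed by -0.12 (SE 0.12) and -0.032 (SE 0.17), and Stat2, an interferon signal transducer, by -0.26 (SE 0.16). The signs of the Stat3 and Tyk2 differences turned when each array was centred on its median.

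Among 19 other inhibitors, 10 were higher and 9 lower on average (median 0.022). Pias3, an inhibitor of STAT3, was the 1 gene at an unadjusted p under 0.05, at 6.0, 5.87 and 5.75 log2 units in weaned and 4.99, 5.09, 5.81 and 5.21 in suckling mice. Suckling replicate 11 lay among the weaned arrays, and the lowest were suckling replicates 2 and 9, the arrays with the highest acinar signal. The difference of 0.60 (SE 0.20, unadjusted p = 0.022, adjusted p = 0.757, limma) was 0.36 without those 2 arrays and 0.36 with the acinar covariate. Without suckling replicate 11, the highest suckling array, it was 0.78 (SE 0.12). Leaving out the lowest or the highest suckling arrays shifts the Pias3 difference by construction. The part of acinar RNA in this difference was not tested.

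Adaptors that link the receptors to other pathways had 10 of 16 measured genes higher in mean, a median of 0.072, and 3 at an unadjusted p under 0.05, all higher in weaned mice. Grb14, an adaptor that binds and inhibits the insulin receptor, was at 6.32, 6.43 and 6.40 log2 units in weaned and 5.83, 6.11, 6.02 and 6.03 in suckling mice, a gap between the groups wider than the range within the weaned one. Its difference was 0.39 (SE 0.10, unadjusted p = 0.00551, adjusted p = 0.676, limma). Grb2, which connects receptors to Ras, differed by 0.28 (SE 0.10) and the Src-family kinase gene Fyn by 0.38 (SE 0.16), where the nearest arrays of the groups were 4.08 and 4.07 log2 units.

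Genes known to respond to lactogens in beta cells were split in sign. Of 28 measured, 16 were higher and 12 lower on average (median 0.0056). The list was not sorted by whether lactogens raise or lower a gene, so this split cannot show whether the response differed. The tryptophan hydroxylase genes Tph1 and Tph2, which start serotonin synthesis, had the smallest p values and opposite signs. Tph1 was at 8.76, 8.92 and 9.36 log2 units in weaned replicates 4, 5 and 12 and at 9.58, 9.71, 9.44 and 9.52 in suckling replicates 2, 9, 11 and 12. All weaned arrays were below all suckling arrays, by 0.55 on average (difference -0.55, SE 0.16, unadjusted p = 0.00945, adjusted p = 0.702, limma). Tph2 was at 5.81, 6.14 and 5.82 in weaned and 5.39, 5.48, 5.36 and 5.42 in suckling mice, a difference of 0.51 (SE 0.11, unadjusted p = 0.0023, adjusted p = 0.59, limma). The Tph1 order of arrays was not that of Cish, since suckling replicate 11 had a low Cish value and a Tph1 value above every weaned array. Of 19 lactogen response genes with a RefSeq start window, 3 held the STAT palindrome, Bcl6, Ivd and Wipi1, whose differences were 0.099, 0.23 and 0.00021, and 9.55% of all genes had it in a window.

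**Figure D4:**
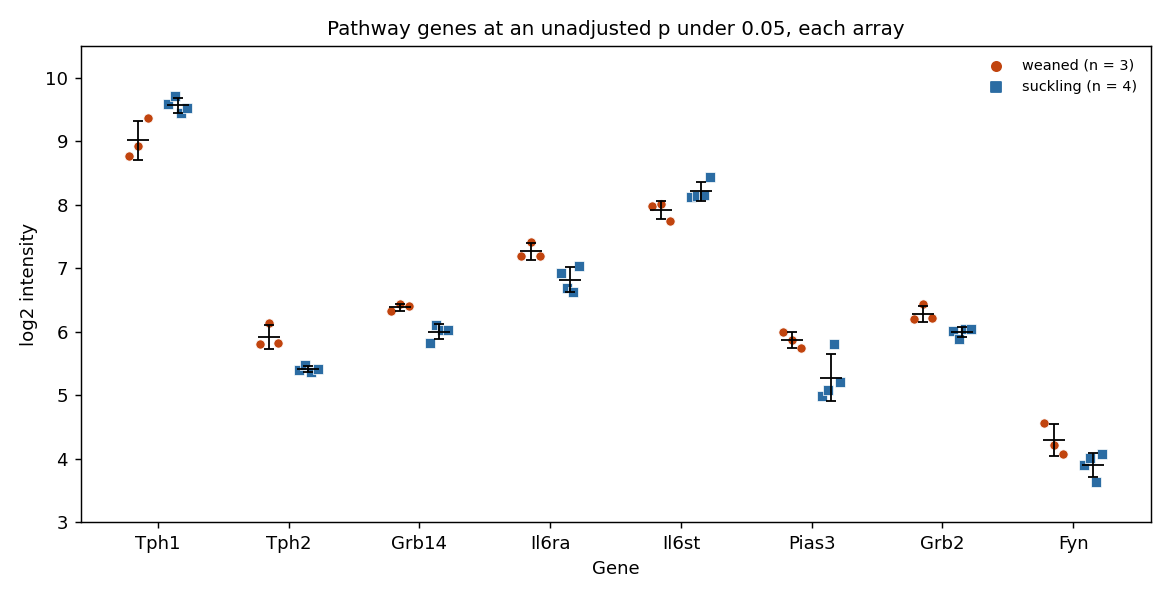
Log2 intensity on each array of the 8 pathway genes at an unadjusted p under 0.05, circles for 3 weaned and squares for 4 suckling mice, with the group mean and SD as bars. Tph1 and Il6st are lower and the other 6 higher in weaned mice, and suckling replicate 11 of Pias3, at 5.81, lies among the weaned arrays.

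Over the whole array, 3 probe sets passed an adjusted p of 0.05 by limma, 2 of the carbohydrate kinase gene Fggy and 1 of the matrix link protein gene Hapln4, all lower in weaned mice. Array medians lay between 14.1 and 14.9 intensity units, and the number of arrays limits the precision. Beta-cell markers were bright, with a mean of 9.27 to 9.51 over 11 genes on every array, and the alpha and delta lists had means of 7.68 to 7.93 over 5 genes and 7.12 to 7.43 over 6 genes. The delta list as used included Ppy, the pancreatic polypeptide gene, which is not a delta-cell hormone gene. In the alpha and delta lists the hormone genes Gcg, Sst and Ppy had suckling means of 12.1, 12.0 and 11.2 log2 units. Ttr, Rbp4 and Slc7a2 were at 10.4, 9.17 and 7.08. The alpha-cell factor Irx1 and the delta-cell factor Hhex were at 4.13 and 3.77, and Irx2, Ghsr and Crhr2 at 5.2, 4.12 and 3.64. In the beta list suckling means ran from 5.18 for Trpm5 to 12.5 for Iapp, with Ins2 at 8.27. Means of the endothelial, mesenchymal, leukocyte and adipocyte lists stayed between 2.47 and 3.56 log2 units, with 5 of 10, 7 of 12, 7 of 10 and 3 of 4 genes at the olfactory receptor level. The duct list had means of 5.16 to 5.78 over 7 genes, all above that level. Among these, Krt7 ran from 8.07 to 8.31, and Krt19 from 3.60 in suckling replicate 2 to 6.84 in suckling replicate 12. Immediate early genes of cell dissociation were highest in weaned replicate 5, at 6.14 against 5.41 to 5.84 on the other arrays, and Cish was also highest there. Suckling replicate 11, the next highest at 5.84, had a Cish value of 6.98, and suckling replicate 2, the lowest at 5.41, had 7.46. A link between the immediate early gene level and Cish was not tested. With the immediate early gene level as a covariate the Cish difference was 0.09 and that of Socs3 probe set 10393449 was 0.29. With the acinar covariate these differences were 0.23 and 0.38.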

How the data were processed

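The deposited intensity values, 1 per probe set and array on a linear scale, come from the authors' RMA step. The submitters' processing notes list RMA and Partek 6.6 without settings. RMA pulls the differences of dim probe sets towards 0. Log2 was taken here. Per the labels, RNA of each mouse was amplified before labelling, and with 1 array per mouse the scatter this adds is part of the spread between mice. The groups were compared on all 35556 probe sets with limma 3.58.1 (lmFit and eBayes, R 4.3.3), two-sided, with no covariate and Benjamini-Hochberg adjustment at 0.05. Differences are weaned minus suckling. The brightest probe set stood for a gene. RefSeq names (GRCm38.p6) were found through the gene ID for 21698 of the 21789 probe sets with 1 symbol.

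The members and lists were chosen with earlier results of these data known. Named were all members, up to 4 genes per list at an unadjusted p under 0.05 or else the 2 with the smallest p, 8 fixed genes (Jak1, Tyk2, Stat3, Stat5a, Stat5b, Tph1, Prl, Gh), and the 3 genes nearest to Cish. Bcl6, Ivd and Wipi1 were named for their motif. Igf1 and Stat2 came through the second part of the rule. The background from olfactory receptor genes was chosen after the data were seen.

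Tested on simulated data with 200 of 35556 probe sets changed, the fit recovered 6.57% of 1.5-fold, 52.5% of 2-fold and 92% of 4-fold changes. The simulated noise was normal and drawn independently for each probe set and array, with limma's moderated variances. Signal shared by many genes of an array, such as the acinar signal, was not part of it. The label codes L13 (weaned) and L14 (suckling) cannot be told apart from the groups. The alternatives were normalization, variance model, array weights, a filter on level, other choices of probe set, covariates, arrays left out and an adjusted threshold of 0.1.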

Additional observations from a re-analysis of the deposited data

Results flagged for a closer look

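Among the 4 suckling values of 26 member and named probe sets, 1 array stood far from the others. Suckling replicate 12 had an Il6st value of 8.43 log2 units, where the other suckling arrays had 8.12, 8.13 and 8.16. Chance flags about 1 in 20 such groups.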

How the results depend on the processing

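No member or named pathway gene passed an adjusted p of 0.05 under any alternative run, and the lowest adjusted p of a member probe set was 0.654. At an unadjusted p under 0.05 the count of members was 0 in the main comparison, 1 with arrays centred on their medians, and 0 to 1 with 1 array left out. The members' median difference ran from 0.053 to 0.147 with 1 array left out. The number of probe sets past 0.05 on the whole array, 3, was 9 over probe sets with 1 symbol, 5 with the immediate early covariate, 0 with the acinar covariate, 0 with the Xist covariate, 0 without suckling replicates 2 and 9 (chosen after seeing the data) and 0 to 2 with 1 array left out. Of 280 differences of the 26 member and named probe sets under the other alternatives, 6 turned sign. These were Jak2 without suckling replicates 2 and 9 (-0.09), Socs2 probe set 10394674 in that fit (0.0083) and with the acinar covariate (0.019), Tyk2 with centred arrays (0.0027), and Stat3 with centred arrays (0.013) and with array weights (0.0035). With 1 array left out, 12 of 182 turned sign, within -0.034 to 0.25 for Cish, -0.099 to 0.11 for Socs1, -0.11 to 0.0041 and -0.022 to 0.16 for the Socs2 probe sets, -0.16 to 0.07 for Tyk2 and -0.085 to 0.047 for Stat3. Beyond these settings' own construction the cause was not tested. Centring raised the share of higher among probe sets at an unadjusted p under 0.05 from 53.4% to 68.2%. No paired analysis was possible because the groups share only 1 replicate number. Signal over background left Lepr, Gh and Igf1 without a readable difference.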

Other observations

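Chosen after the values were seen, the array that was lowest for each of the 27 lactogen response genes above background was counted. Weaned replicate 4, 1 of the 2 arrays with the lowest values of Cish and of Socs2 probe set 10394674, was the lowest array for 8 of them, or 29.6%, where it was lowest for 15.5% of all 21566 probe sets above background. Among these 8 was Tph1, at 8.76 log2 units. Suckling replicate 11, the other such array, was lowest for 5, or 18.5%, against 8.45% of all probe sets. Weaned replicate 12, whose Cish value of 7.45 was not low, was lowest for 6, or 22.2%, against 14.5%. Weaned replicate 5, with the highest Cish value of 7.53, was lowest for 1, or 3.7%, against 14.7%. Suckling replicate 2 was lowest for 5, or 18.5%, against 21.8% of all probe sets. Suckling replicate 9 was lowest for 2, or 7.41%, against 12.3%, and suckling replicate 12 for 0 against 12.8%. A link between these counts and the Cish level was not tested. The list was not sorted by whether lactogens raise or lower a gene, so these counts cannot show a weaker response. Wipi1, an autophagy gene induced in islets in pregnancy, was at 9.52 log2 units in weaned replicate 4 and at 9.90 to 10.31 on the other 6 arrays. Lrrc55, another gene of that list, was at 9.82 there and at 10.16 to 10.62 elsewhere, and Igfals, a gene of the ligand list that encodes a binding partner of IGF1, at 7.99 against 8.12 to 8.43. Weaned replicate 4 was also the highest array for other lactogen response genes, among them Ivd (9.03), Cdkn1b (8.84), Ccnd2 (10.51) and Pim3 (5.41). The counts are descriptions of 7 arrays and were given no test.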
